A study of Mus musculus with 10 samples.

Results

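Bone mineral is laid down by a small set of genes that act in sequence, and 9 of them were followed here in mouse sarcomas: the transcription factors Runx2 and Sp7, the mineralization enzymes Alpl, Enpp1 and Phex, and the bone matrix proteins Bglap, Ibsp, Spp1 and Dmp1. The genes were chosen by name with earlier results of these data known, so counts among them are a description. Each was found by its gene identifier in a table of 56750 features. All 9 had enough counts to be among the 24743 genes tested.

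RUNX2 commits mesenchymal cells to the bone lineage, and SP7, also called osterix, acts after it and is needed for osteoblasts to form. Osteoblasts then carry tissue-nonspecific alkaline phosphatase, encoded by Alpl, on their surface, where it breaks down pyrophosphate, an inhibitor of mineral, while ENPP1 makes pyrophosphate. Bone sialoprotein (Ibsp), osteopontin (Spp1) and dentin matrix protein (Dmp1) are acidic phosphoproteins of the mineralized matrix, osteocalcin (Bglap) is a late product of osteoblasts, and PHEX is a membrane peptidase that, like DMP1, is typical of osteocytes and is known from inherited disorders of phosphate loss.

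RNA was compared between 3 dFLEx CDS tumors (170019, 170024 and 170025; genotype dFLEx CDS +/-) and 2 KP tumors (3800 and 3802; genotype with p53fl/fl). The dFLEx CDS mouse carries an HA-tagged fusion of CIC with DUX4 at Rosa26 under the CAG promoter. Its exons are placed in order only by Cre together with FLP, which were delivered to hind limb muscle by electroporated plasmids. KP sarcomas, from mice of the KP model with floxed p53 alleles, served as the comparison without the fusion. The labels name no age, sex or drug treatment and identify tumors rather than animals, so p-values measure the spread between these tumors. The CAG promoter is active in most cell types, so the model does not fix the cell of origin within the muscle. No normal muscle or bone was analysed here.

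Each tumor's RNA was split into duplicate libraries, and 9 of the 10 labelled libraries had a column in the table. They held between 20503474 and 46302223 counts. Tumor 3802 was represented by 1 library, which had the lowest total and the most features with a count (36904, against 24280 to 31768 in the others). Genes for olfactory and vomeronasal receptors, which a sarcoma should not express, gave a background level of 0.107 CPM (the count as a share of the scaled library size, expressed on one fixed total) per kilobase of exon in 3802, and 0.00269 to 0.0239 in the other tumors. The fusion transcript was measured at 89.2 to 412 CPM in dFLEx libraries (here of the unscaled library total), at 0 counts in 3800 and at 6 counts in 3802. Levels below are CPM of the summed libraries of a tumor after TMM scaling, and the number of tumors is 3 in dFLEx and 2 in KP throughout.

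Of the 9 genes, 3 were far higher in dFLEx tumors, 3 were lower, and 3 overlapped between the groups. Sp7, Alpl and Ibsp lay in every dFLEx tumor above both KP tumors, with fitted group log2 fold changes of 6.19 to 9.00 and with 35.3-fold to 62.1-fold between the nearest tumors of the groups. Phex, Dmp1 and Spp1 lay in every dFLEx tumor below both KP tumors, with fitted group log2 fold changes of -5.06 to -2.43 and with 1.75-fold to 5.86-fold between the nearest tumors. Runx2, Enpp1 and Bglap overlapped. In edgeR's quasi-likelihood test with Benjamini-Hochberg adjustment over all genes, 1 of the 9 passed 0.05, Alpl, which rose in dFLEx tumors. Over all tested genes 0.101% were called higher and 0.0808% lower. The 6 separated genes were also the 6 with an unadjusted p under 0.05, 3 in each direction, a result that 5.65% of all tested genes gave upward and 4.93% downward. Lying wholly above or wholly below the KP tumors was itself common, at 13.7% and 11.7% of tested genes. The same 6 genes were called when DESeq2 was applied to the tumor sums, which called 3.71% of the genes it tested higher and 2.82% lower.

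**Figure D1:**
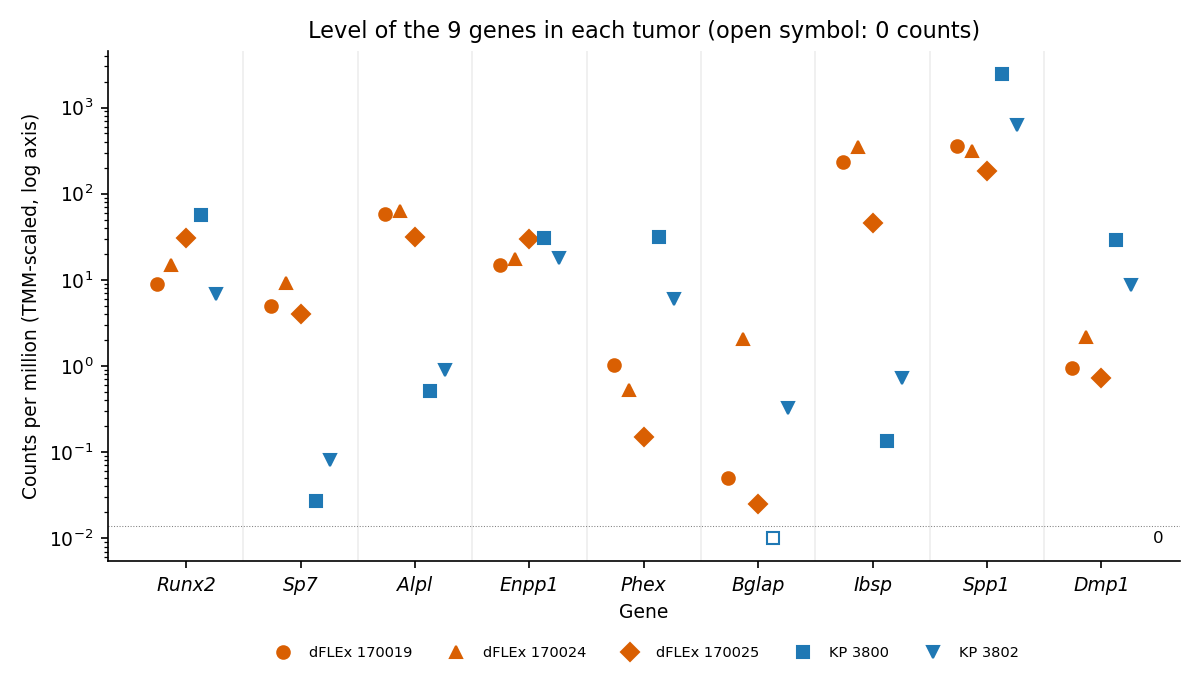
Level of each of the 9 genes in CPM after TMM scaling, on a log axis, with 1 symbol per tumor (orange, dFLEx; blue, KP; the open symbol is a count of 0). Alpl stood at 31.5 to 62.3 CPM in dFLEx tumors and below 1 CPM in KP tumors, Phex and Dmp1 had the opposite order, and Runx2 and Enpp1 mixed the groups.

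Transcription of the bone lineage factors was examined first. Runx2 (ENSMUSG00000039153, chromosome 17, 44806874 to 45125684, minus strand, GRCm39) was measured at 8.93, 14.8 and 30.2 CPM in dFLEx tumors 170019, 170024 and 170025, and at 57 and 6.79 CPM in KP tumors 3800 and 3802. The KP tumors held both the highest and the lowest of the 5 values, so the groups overlapped completely. Means were 18 ± 11 CPM (SD, n = 3) and 31.9 ± 35.5 CPM (SD, n = 2), a log2 fold change of -0.83 (SE 0.93, edgeR adjusted p 0.89). Without 3800 the sign turned, to 1.58. Of the exonic bases of Runx2, 5.87% overlap the antisense gene Runx2os1, and reads over both were not counted.

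Sp7 (ENSMUSG00000060284, chromosome 15, 102265041 to 102275617, minus strand) was measured at 5.03, 9.17 and 4.01 CPM in 170019, 170024 and 170025. It was nearly absent from KP tumors, at 0.0269 CPM in 3800 and 0.0813 CPM in 3802, which is 2 counts in each. The dFLEx tumors, with 202, 529 and 318 counts, lay within 2.29-fold of one another and all far above. Group means were 6.07 ± 2.74 CPM (SD, n = 3) and 0.0541 ± 0.0385 CPM (SD, n = 2), with a log2 fold change of 6.95 (SE 1.08) that did not pass the threshold in edgeR (adjusted p 0.0744). Between the closest tumors, 170025 and 3802, the ratio was 49.3 (95% counting interval 13.5 to 409). Such intervals, here and below, leave out the spread between duplicates and between tumors. In 3802 the level of Sp7 per kilobase was 0.224 times the receptor background. The log2 fold change ran from 5.92 to 11.39 over all alternatives, the highest value coming from subtraction of the receptor background (edgeR adjusted p 0.0547). Sp7 passed with 3802 left out (log2 fold change 7.73, edgeR adjusted p 0.034) and under DESeq2 on tumor sums (adjusted p 4.42e-08), with a range of 2e-14 to 0.388 over all alternatives.

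The ratio of the factors was taken within each tumor, which removes the scaling between tumors. On counts per kilobase, Sp7 over Runx2 was 1.46, 1.61 and 0.345 in 170019, 170024 and 170025, and 0.00123 and 0.0311 in 3800 and 3802. In 2 dFLEx tumors Sp7 thus exceeded Runx2, and in both KP tumors it was a small fraction of it. The log2 ratios averaged -0.10 ± 1.24 (SD, n = 3) and -7.34 ± 3.30 (SD, n = 2), a difference of 7.24. With 10 possible splits of 5 tumors, the two-sided exact permutation test, taken as the doubled one-sided p, cannot go below p = 0.2. Each of the 4 ratios tested reached that value, also after Benjamini-Hochberg adjustment. Each ratio set a gene wholly above in dFLEx tumors over one that was lower or overlapped, among genes chosen with earlier results known. The test therefore adds no support to the separation of the single genes.

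Alpl (ENSMUSG00000028766, chromosome 4, 137469044 to 137523695, minus strand) was measured at 58.5, 62.3 and 31.5 CPM in 170019, 170024 and 170025, and at 0.51 and 0.894 CPM in 3800 and 3802. Even the lowest dFLEx tumor was 35.3 times above the highest KP tumor (95% counting interval 23.2 to 56.4). The means of 50.8 ± 16.8 CPM (SD, n = 3) and 0.702 ± 0.271 CPM (SD, n = 2) gave a log2 fold change of 6.19 (SE 0.83), and the edgeR adjusted p was 0.048. The size of the change was stable, at 5.86 to 6.70 over all alternatives, but the adjusted p (9.55e-36 to 0.183) was not. The call was lost with library totals (0.0619) or the upper quartile (0.0704) in place of TMM and without 170019 (0.183), 170024 (0.178), 170025 (0.0637) or 3800 (0.125).

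Enpp1 (ENSMUSG00000037370, chromosome 10, 24513812 to 24588057, minus strand), the source of the pyrophosphate that alkaline phosphatase removes, was measured at 14.9, 17.4 and 29.6 CPM in dFLEx tumors and at 30.5 and 18 CPM in KP tumors. All 5 tumors expressed it at a similar level, and the groups overlapped. The log2 fold change was -0.23 (SE 0.62, edgeR adjusted p 0.957), and it was 0.37 without 3800. Alpl changed while Enpp1 stayed in one range, and the order of the pair was reversed. Per kilobase, Alpl exceeded Enpp1 by 9.97, 9.12 and 2.71 times in 170019, 170024 and 170025, and was 0.0426 and 0.127 times Enpp1 in 3800 and 3802. The mean log2 ratio was 2.65 ± 1.05 (SD, n = 3) against -3.77 ± 1.11 (SD, n = 2), a difference of 6.41 that ran from 5.63 to 7.20 when each tumor was left out in turn.

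**Figure D2:**
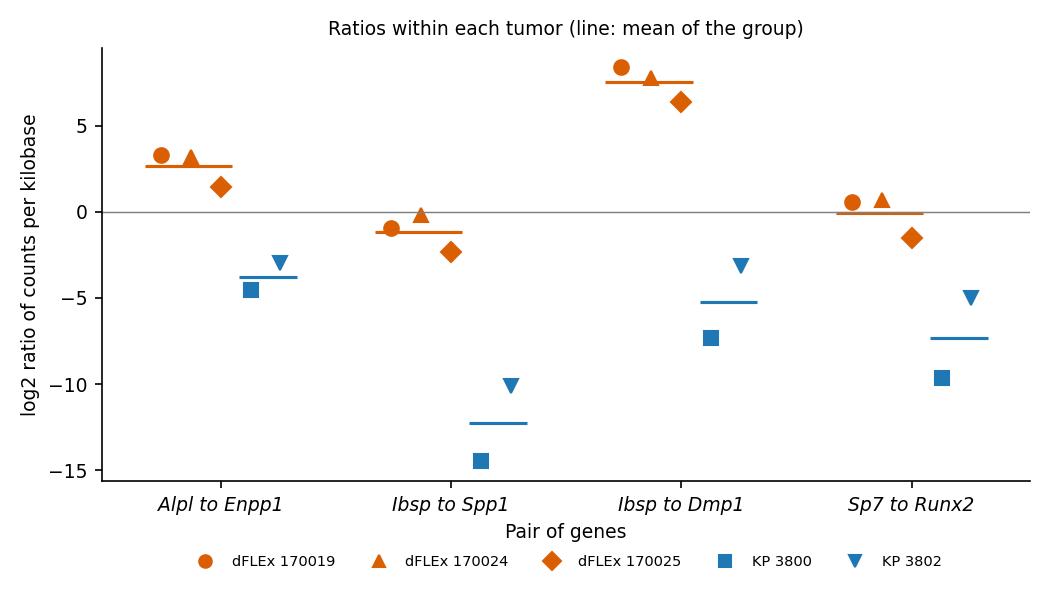
Log2 ratio of counts per kilobase for 4 pairs of genes in each tumor, with lines at the group means (orange, dFLEx; blue, KP). Alpl to Enpp1 was above 0 in all 3 dFLEx tumors and below 0 in both KP tumors, and so was Ibsp to Dmp1. In the other pairs the dFLEx tumors lay between -2.34 and 0.69 and the KP tumors at -5.00 or below.

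Phex (ENSMUSG00000057457, chromosome X, 155945071 to 156198308, minus strand) had the opposite order to Alpl. It was measured at 1.02, 0.52 and 0.151 CPM in 170019, 170024 and 170025, and at 31.2 and 5.97 CPM in 3800 and 3802. Every dFLEx tumor lay below both KP tumors, the nearest tumors being 3802 and 170019 with a ratio of 5.86 (95% counting interval 4.12 to 8.49). Means were 0.564 ± 0.436 CPM (SD, n = 3) and 18.6 ± 17.8 CPM (SD, n = 2), a log2 fold change of -5.06 (SE 1.05, edgeR adjusted p 0.12). It was -3.26 without 3800, and -5.79 without 3802, where it passed (edgeR adjusted p 0.0273, within a range of 1.71e-10 to 0.371). The counts of 41, 30 and 12 in dFLEx tumors were low, and the duplicates of 170019 differed by 1.96-fold.

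Among the matrix genes, Ibsp showed the largest fold change of the 9. Ibsp (ENSMUSG00000029306, chromosome 5, 104447037 to 104459335, plus strand) was measured at 235, 350 and 45.4 CPM in 170019, 170024 and 170025, against 0.134 CPM (10 counts) in 3800 and 0.731 CPM (18 counts) in 3802. The dFLEx tumors were spread over 7.71-fold, and 170025, the lowest, was still 62.1 times above 3802 (95% counting interval 39.2 to 105). Means were 210 ± 154 CPM (SD, n = 3) and 0.433 ± 0.422 CPM (SD, n = 2), with a log2 fold change of 9.00 (SE 1.47, edgeR adjusted p 0.0784). With 3802 left out the log2 fold change was 10.61 and passed (edgeR adjusted p 0.032), and over all alternatives it ran from 8.31 to 10.61 and its adjusted p from 1.09e-22 to 0.225. In 3802 the level per kilobase was 3.32 times the receptor background, against 10.4 times in 3800.

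Dmp1 (ENSMUSG00000029307, chromosome 5, 104350479 to 104361968, plus strand) was measured at 0.945, 2.15 and 0.731 CPM in dFLEx tumors and at 28.7 and 8.7 CPM in KP tumors. The nearest tumors, 3802 and 170024, differed by a ratio of 4.04 (95% counting interval 3.23 to 5.09). Means were 1.28 ± 0.765 CPM (SD, n = 3) and 18.7 ± 14.1 CPM (SD, n = 2), a log2 fold change of -3.87 (SE 0.82, edgeR adjusted p 0.122). It was -2.61 without 3800. It was -4.47 and passed without 3802 (edgeR adjusted p 0.0327, range over alternatives 5.08e-12 to 0.357).

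Spp1 (ENSMUSG00000029304, chromosome 5, 104582984 to 104588916, plus strand) was the most abundant of the 9 genes per kilobase in all 5 tumors. It was measured at 362, 312 and 183 CPM in 170019, 170024 and 170025, and at 2453 and 633 CPM in 3800 and 3802. The groups did not overlap, but the gap was narrow, at 1.75-fold between 3802 and 170019 (95% counting interval 1.71 to 1.79). Means were 286 ± 92.4 CPM (SD, n = 3) and 1543 ± 1287 CPM (SD, n = 2), a log2 fold change of -2.43 (SE 0.69, edgeR adjusted p 0.229). Without 3800 the value was -0.99. Of the exonic bases of Spp1, 18.8% overlap the predicted gene Gm42793, where reads were not counted.

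Osteopontin is made by macrophages and osteoclasts as well as by bone cells, so the markers of those cells were measured beside it. The 8 macrophage markers summed to 590 to 821 CPM in dFLEx tumors and to 1268 and 4148 CPM in 3800 and 3802, with 4 of 8 lower in every dFLEx tumor, 0 of 8 higher and none at 0. In edgeR 0 of 8 passed, 3 had an unadjusted p under 0.05, all downward, and DESeq2 on tumor sums called 0. Over all tested genes 11.7% lay wholly below and 13.7% wholly above, and 4.93% had an unadjusted p under 0.05 downward. DESeq2 called 2.82% lower. C1qa alone made up 3099 CPM of the sum in 3802. Csf1r, the receptor that defines the lineage, named after its values were seen, was at 156 CPM in 3800 and 109 CPM in 3802. In 170019, 170024 and 170025 Csf1r was at 37.3, 69.7 and 84.9 CPM (log2 fold change -1.05, SE 0.58, edgeR adjusted p 0.65). The groups overlapped in 4 of the 8 markers. The 8 osteoclast markers, given further below, had the opposite order to Spp1. They summed to 2867, 1765 and 771 CPM in 170019, 170024 and 170025, and to 68.7 and 332 CPM in 3800 and 3802. Of the 8, 7 lay wholly above in dFLEx tumors and 1 overlapped. The part of macrophages and of osteoclasts in the Spp1 result was not tested. In bulk RNA, fewer cells of a type and less RNA per cell cannot be told apart, here or for any gene above.

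Bglap (ENSMUSG00000074483, chromosome 3, 88290808 to 88291771, minus strand), the latest marker of the osteoblast, was scarce. It had 2, 118 and 2 counts in 170019, 170024 and 170025, or 0.0498, 2.05 and 0.0252 CPM, and 0 and 8 counts in 3800 and 3802. Only 170024 held more than a trace, and the groups overlapped (log2 fold change 2.19, SE 2.42, edgeR adjusted p 0.888). Without 3802 the log2 fold change was 8.48 (SE 3.82, edgeR adjusted p 0.343), since 3800, the KP tumor left, had 0 counts, and over all alternatives it ran from 0.84 to 8.48. The count of 8 in 3802 amounted to 4.93 times the receptor background per kilobase.

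The mouse has 3 osteocalcin genes in a row that are nearly identical, which makes the counts of each uncertain. Bglap and Bglap2 differ at 4 of 288 coding bases (98.6% identical) and Bglap and Bglap3 at 13 (95.5%). The first 120 coding bases of each, read from GRCm39 with GENCODE M39 annotation, are given below with bases that differ from Bglap in capitals.
Bglap: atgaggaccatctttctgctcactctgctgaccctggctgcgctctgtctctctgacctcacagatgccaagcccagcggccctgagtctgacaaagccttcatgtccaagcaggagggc
Bglap2: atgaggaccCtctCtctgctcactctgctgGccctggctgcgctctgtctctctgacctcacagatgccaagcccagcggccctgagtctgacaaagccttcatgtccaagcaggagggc
Bglap3: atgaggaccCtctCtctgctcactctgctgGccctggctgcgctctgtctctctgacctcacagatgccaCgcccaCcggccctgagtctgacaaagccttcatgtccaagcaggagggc
Reads that align equally well to several of the genes were not counted, so each is a lower estimate. Bglap2 had 0, 53 and 0 counts in dFLEx tumors and 0 and 10 in KP tumors, so 170024 was again the highest. Bglap3 had 0, 5 and 14 counts, and 0 and 5. Of the other 8 genes, none had a copy elsewhere that aligned over 100 bases at 90% identity, except for 519 bases of Runx2 in its antisense gene and 215 bases of Phex at 90.2% identity to Gm45528.

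Ibsp, Dmp1 and Spp1 are neighbors. They belong to the SIBLING cluster of chromosome 5, a run of related genes for secreted phosphoproteins of bone and tooth, with Dspp (dentin) and Mepe (osteocytes). Measured from the start of Dspp, Dmp1 begins at 31.9 kb, Ibsp at 128.5 kb, Mepe at 154.6 kb and Spp1 at 264.4 kb. The log2 fold changes alternated along this stretch, from -3.87 at Dmp1 to 9.00 at Ibsp and -2.43 at Spp1. Dspp had 1 count over all tumors and Mepe had 2, too few to test. The flanking genes Sparcl1 (log2 fold change 1.66, SE 0.80, edgeR adjusted p 0.559) and Pkd2 (0.38, SE 1.00, edgeR adjusted p 0.956) did not pass the threshold. Neither did Dmp1, Ibsp or Spp1 (edgeR adjusted p 0.122, 0.0784 and 0.229). Sparcl1 too lay wholly above in dFLEx tumors, at 95.4, 142 and 461 CPM against 86.5 and 61.2 CPM in KP tumors, while Pkd2 overlapped. Ibsp per kilobase exceeded Dmp1 by 332, 218 and 83.1 times in 170019, 170024 and 170025, and was 0.00626 and 0.112 times Dmp1 in 3800 and 3802. Against Spp1, the ratio of Ibsp was 0.516, 0.895 and 0.198 in dFLEx tumors, and 4.37e-05 and 0.000921 in KP tumors. All 3 dFLEx tumors thus held Ibsp within an order of magnitude of Spp1, which neither KP tumor did.

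**Figure D3:**
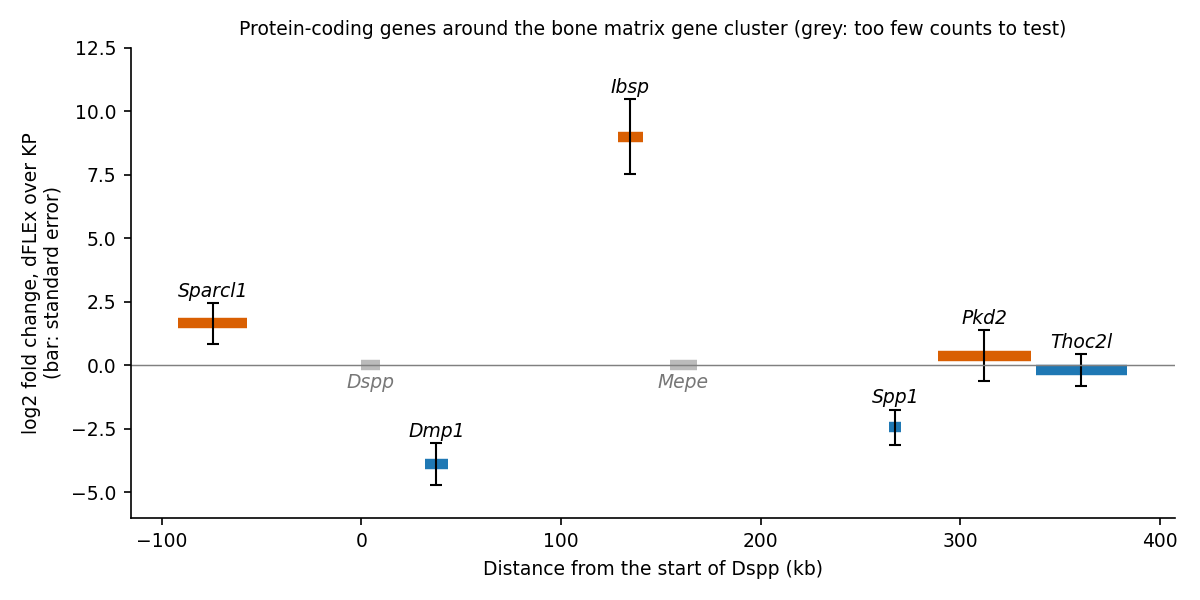
Log2 fold change of dFLEx over KP tumors (vertical axis; bars, SE) for protein-coding genes against distance in kb from the start of Dspp (colored bars span each gene; orange, above 0; blue, below 0; grey, too few counts). Ibsp stands at 9.00 between Dmp1 at -3.87 and Spp1 at -2.43.

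Since Ibsp and Dmp1 lie close together and had opposite orders, the 200 bases before the start of each canonical transcript (GENCODE M39, GRCm39) are shown, with the Runx core motif TGTGGT, on either strand, in capitals.
Ibsp, chr5:104446837-104447036, plus strand: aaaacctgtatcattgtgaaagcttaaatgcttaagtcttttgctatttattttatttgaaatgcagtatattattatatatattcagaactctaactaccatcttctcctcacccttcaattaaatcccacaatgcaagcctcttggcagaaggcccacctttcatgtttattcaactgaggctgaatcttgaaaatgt
Dmp1, chr5:104350276-104350475, plus strand: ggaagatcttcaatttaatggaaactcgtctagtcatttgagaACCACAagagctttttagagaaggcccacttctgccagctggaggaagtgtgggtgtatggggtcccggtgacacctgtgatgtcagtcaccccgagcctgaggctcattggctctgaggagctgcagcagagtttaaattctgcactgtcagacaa
The stretch before Ibsp is 33.5% G and C, and that before Dmp1 50%. In windows from 250 bases before the start to 50 after it, the Runx core was found in Enpp1, Bglap and Dmp1, 3 of 9, and in 15.3% of 21770 promoters of protein-coding genes. The octamers bound by CIC, TGAATGAA and TGAATGGA, were in 0 of 9, and in 1.39% and 1.14% of all promoters. The GC box GGGCGG was in 3 of 9 (Runx2, Alpl and Enpp1) and in 42.5% of all promoters, the AP-1 motif TGANTCA was in 0 of 9 and in 7.14%, the homeodomain core TAATTA was in 0 of 9 and in 5.51%, and TATAAA was in Bglap alone and in 13.2%. These matches describe letters in the windows only. No 2 of the motifs overlap in the 9 windows, other than neighboring copies of the GC box in Alpl.

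Levels were then ordered within each tumor, per kilobase of exon. In dFLEx tumors the order began with Spp1, Ibsp and Alpl in all 3, at 220, 113 and 14.5 CPM per kilobase in 170019, at 189, 169 and 15.4 in 170024, and at 111, 22 and 7.81 in 170025. In KP tumors it began with Spp1 and Dmp1, at 1488 and 10.4 CPM per kilobase in 3800 and at 384 and 3.15 in 3802. Alpl, at rank 3 in every dFLEx tumor, ranked 6 in 3800 and 8 in 3802, and Ibsp, at rank 2, ranked 7 in both. Phex was last or next to last in every dFLEx tumor and ranked 4 in both KP tumors. Within dFLEx tumors, Runx2, Enpp1 and Sp7 lay at 1.01 to 3.41 CPM per kilobase, in the order Sp7, Enpp1, Runx2 in 170019 and 170024 and in the opposite order in 170025. Neighbors in that order were close, with Sp7 and Enpp1 at 1.48 and 1.46 in 170019 and Enpp1 and Runx2 at 1.69 and 1.68 in 170024.

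Genes whose pattern over the 5 tumors was closest to those of the factors and of Alpl were then found. The measure was the root mean square difference of centered log2 values, with a small constant added to each CPM. For Sp7 the closest genes were Sfrp4 (0.25), Atp6v0d2 (0.27) and Cited4 (0.29), and for Alpl they included Car2 (0.22) and Hcrtr1 (0.33). For Runx2, whose values ranged over fewer orders of magnitude, they were Fcsk (0.07), Dhx40 (0.08) and Etfdh (0.09). The constant narrows fold changes of genes near 0 CPM, as Sp7 was in KP tumors, so closeness did not mean an equal fold change. The log2 fold change was 4.14 in Sfrp4, 3.85 in Atp6v0d2 and 4.87 in Cited4, against 6.95 in Sp7. With 5 tumors, many genes come close to any one pattern.

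The 9 genes were set beside 35 related genes in 5 groups, of which 33 could be tested. In edgeR 0 of the 33 passed the adjusted threshold, 10 had an unadjusted p under 0.05 and 4 were called by DESeq2 on tumor sums. All dFLEx tumors lay above the KP tumors for 10 of the 33 and below them for 3. Over all tested genes 13.7% lay wholly above and 11.7% wholly below, so the 3 below were not more than that share. An unadjusted p under 0.05 was found for 5.65% of all tested genes upward and 4.93% downward. DESeq2 on tumor sums called 3.71% higher and 2.82% lower. These shares stand beside the counts of each list below. The median log2 fold change of the 33 was 0.23, against -0.18 over all tested genes.

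Of 10 further osteoblast regulators, 4 lay wholly above and 1 wholly below, with a median log2 fold change of 0.48. The homeobox gene Dlx5, which acts early in bone, was measured at 2.19, 2.32 and 2.14 CPM in dFLEx tumors and at 0 and 0.122 CPM in KP tumors. It was nearly equal in the 3 dFLEx tumors and almost absent from the others (log2 fold change 5.45, SE 1.61, edgeR adjusted p 0.251). Its relative Dlx3 had the lowest log2 fold change of the group, -2.68 (SE 1.00, edgeR adjusted p 0.384). The receptors for parathyroid hormone, Pth1r (3.19, SE 0.88, edgeR adjusted p 0.215), and for vitamin D, Vdr (3.20, SE 0.91, edgeR adjusted p 0.23), were wholly above as well and are named after their values were seen. DESeq2 called Dlx5, Pth1r and Vdr, with adjusted p of 0.00109, 0.00548 and 0.00529.

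Of 9 tested bone matrix genes, 4 lay wholly above and 0 below, with a median of 1.01 and a range of -0.09 (Bglap3) to 2.64 (Ifitm5). Sparc (osteonectin), the most abundant of them in CPM in 4 of the 5 tumors, was measured at 4907, 4042 and 3553 CPM in dFLEx tumors and at 2176 and 1186 CPM in KP tumors. The groups did not overlap, yet the difference was small for this spread (log2 fold change 1.31, SE 0.55, edgeR adjusted p 0.449).

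Of 8 genes that handle phosphate and pyrophosphate, 1 lay wholly above and 1 wholly below, with a median of -0.32. Both counts were close to the shares over all tested genes (13.7% and 11.7%). The gene below was Ank (the pyrophosphate exporter gene named ANKH in human), at 31.8, 45.4 and 49 CPM in dFLEx tumors and at 504 and 96.1 CPM in KP tumors. Like Phex, Dmp1 and Spp1 it was highest in 3800 (log2 fold change -2.83, SE 0.75, edgeR adjusted p 0.202; DESeq2 adjusted p 0.00804). The gene above was Phospho1, a phosphatase of matrix vesicles, with a log2 fold change of 2.66 (SE 1.18, edgeR adjusted p 0.49).

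Osteocyte genes were low or shared. Of 3 tested, all 3 overlapped, with a median of -0.76 and a range of -0.93 (Sost) to -0.17 (Fgf23). Sost, which encodes sclerostin, did not exceed 0.572 CPM in dFLEx tumors and was 0.148 and 1.58 CPM in KP tumors. Phex and Dmp1 separated the groups, and these 3 genes did not. Of 3 genes that couple osteoblasts to osteoclasts, Tnfsf11 (RANKL) lay wholly above (log2 fold change 1.35, SE 0.70, edgeR adjusted p 0.602), its decoy receptor Tnfrsf11b wholly below (-1.85, SE 0.73, edgeR adjusted p 0.415), and Csf1 overlapped (-2.26, SE 0.97, edgeR adjusted p 0.466).

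**Figure D4:**
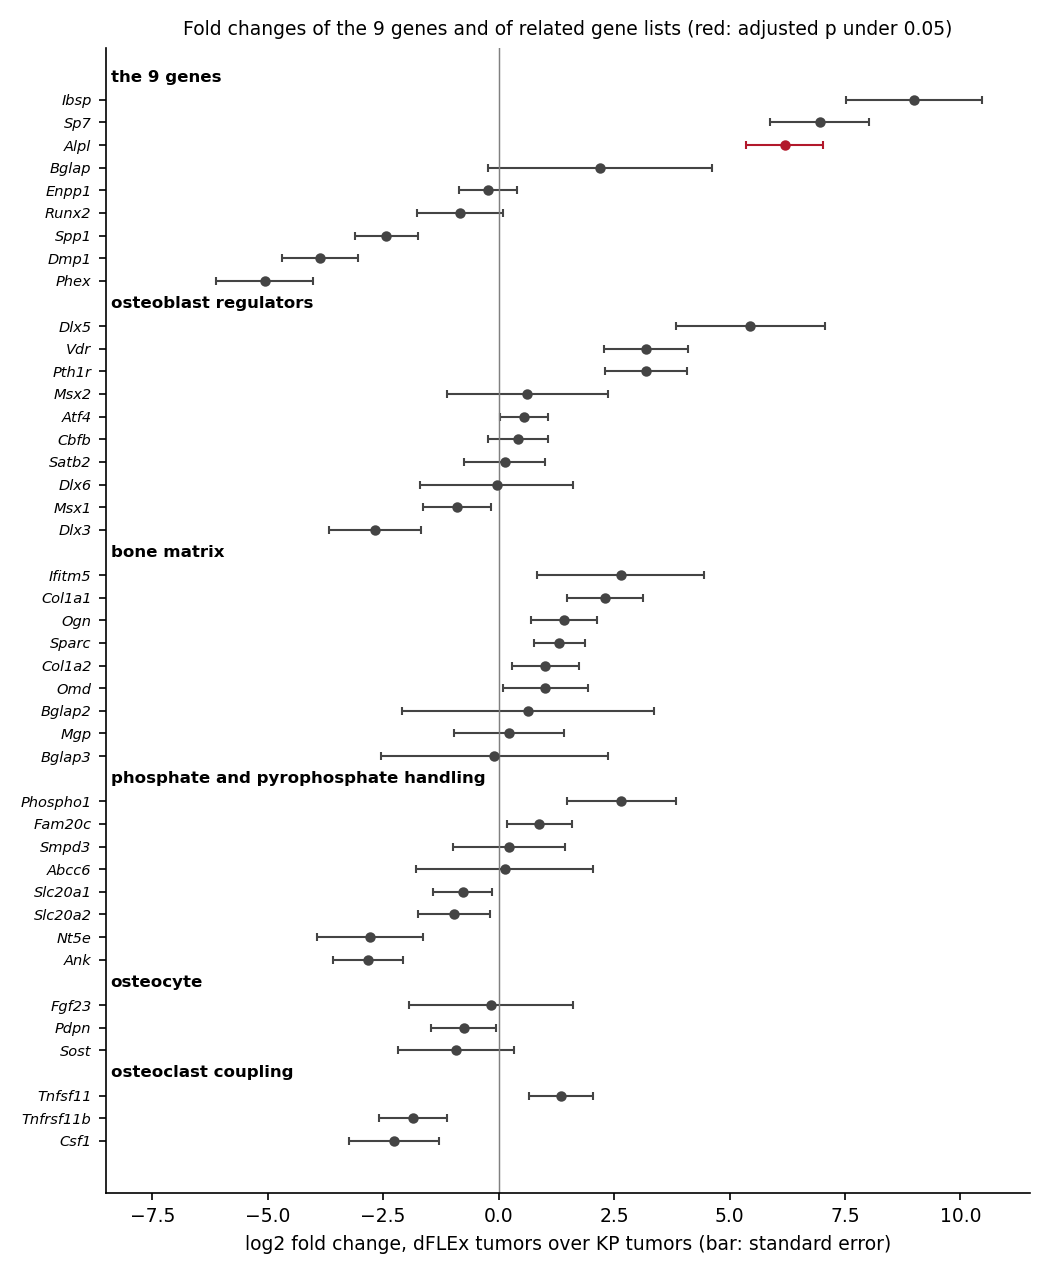
Log2 fold change of dFLEx over KP tumors (points; bars, SE) for the 9 genes and for 33 related genes in 5 groups, with red for an edgeR adjusted p under 0.05. Alpl is the one red point, Ibsp and Sp7 lie furthest right at 9.00 and 6.95, and Phex, Dmp1, Ank and Nt5e lie furthest left, at -5.06, -3.87, -2.83 and -2.79.

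Some lists of markers of other cell types that such tumors could hold differed between the groups, and others overlapped. Osteoclasts resorb bone, and their 8 markers summed to 2867, 1765 and 771 CPM in 170019, 170024 and 170025, and to 68.7 and 332 CPM in 3800 and 3802. Of these, 7 of 8 lay wholly above in dFLEx tumors. In edgeR 0 passed and 7 had an unadjusted p under 0.05, and DESeq2 on tumor sums called 6 higher, the largest edgeR log2 fold change being that of Atp6v0d2 (3.85, SE 0.71, edgeR adjusted p 0.0936). Calcr, the calcitonin receptor, was the exception, at no more than 0.191 CPM in dFLEx tumors. Chondrocyte markers summed to 555, 863 and 1805 CPM in dFLEx tumors and to 2.08 and 41.4 CPM in KP tumors, and 5 of the 6 tested lay wholly above. DESeq2 on tumor sums called 2 of the 6 higher. Among the 5, Col10a1 was barely above, at 0.572 CPM in 170019 against 0.564 CPM in 3800, and did not exceed 2.32 CPM. Ihh, at no more than 0.416 CPM in any tumor, was not tested. Aggrecan, Acan, passed the threshold (log2 fold change 8.52, SE 0.82, edgeR adjusted p 0.0248), and Col2a1, the collagen of cartilage, had the largest change of that list (9.38, SE 1.32, edgeR adjusted p 0.0521). Cartilage cells can also make alkaline phosphatase, Sp7 and Ibsp. Col2a1 alone made up 1636 of the 1805 CPM of the chondrocyte sum in 170025, and Acan, at 65, 94.8 and 82.4 CPM, did not peak there. Among dFLEx tumors, Ibsp and the osteoclast sum were both lowest in 170025. Also lowest there were Sp7, Alpl, Phex, Bglap, Spp1 and Dmp1 and the macrophage and tendon sums, while Runx2 and Enpp1 were highest there. The part of osteoclasts and chondrocytes in the results for Sp7, Alpl and Ibsp was not tested.

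The remaining lists were summed in the same way. Skeletal muscle fiber markers summed to 5761, 23261 and 7238 CPM in dFLEx tumors and to 1048 and 2948 CPM in KP tumors, with 4 of 5 wholly above. Fibroblast markers summed to 2200 to 4695 CPM against 987 to 2092 CPM (2 of 5 wholly above), pericyte markers to 546 to 978 CPM against 60.7 to 371 CPM (2 of 5), and endothelial markers to 171 to 505 CPM against 63.2 to 128 CPM (2 of 4). Tendon markers, at 23.5 to 120 CPM against 95.2 to 108 CPM, and neutrophil markers, at 6.29 to 49.1 CPM against 6.38 to 36.9 CPM, overlapped in every gene. The part of these cells in the results was not tested.

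**Figure D5:**
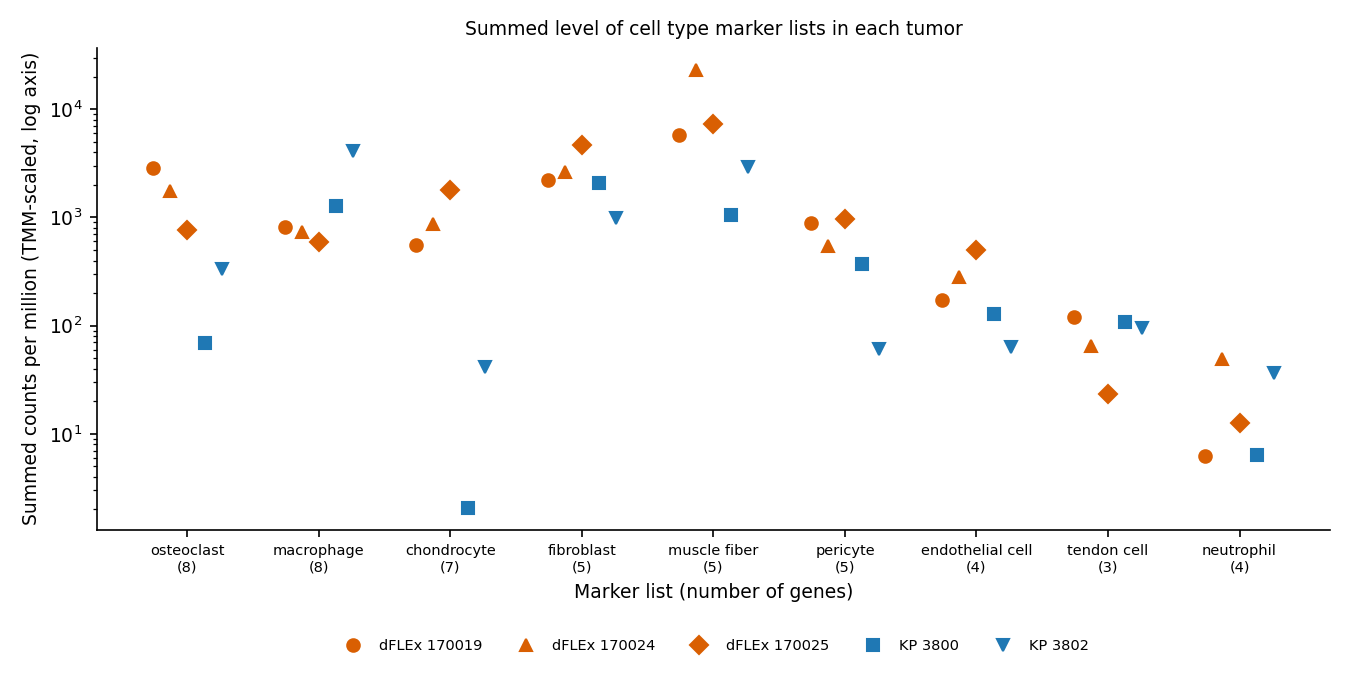
Summed CPM after TMM scaling, on a log axis, of 9 lists of cell type markers in each tumor (orange, dFLEx; blue, KP), with the number of genes in each list in parentheses. Osteoclast, chondrocyte, muscle fiber, fibroblast, pericyte and endothelial sums are higher in all 3 dFLEx tumors than in both KP tumors. The macrophage sum is lower, and the tendon and neutrophil sums overlap.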

How the data were processed

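The authors trimmed reads with Trimmomatic (0.39), aligned them with STAR (2.7.10a) to GRCm39 plus a CIC::DUX4 contig, and deposited raw counts per gene from featureCounts (Subread 2.0.3). Per the file headers, each mate of a pair was counted, strand was ignored, and reads with several alignments or over several genes were left out. Symbols came from GENCODE M39 (56017 of 56750 features), and coordinates are those of the deposited table. The tumor was the replicate: duplicate libraries of split RNA were summed, and numbers of duplicates do not pair tumors (deviations correlated at -0.02 to 0.11 over 6 pairs of tumors). EdgeR (4.0.16; R 4.3.3) was used with filterByExpr, TMM and glmQLFTest, with Benjamini-Hochberg adjustment over 24743 genes at 0.05. The SE is the absolute log2 fold change over the square root of F. DESeq2 (1.42.0) and limma (3.58.1) were alternatives. The scripts were tested on simulated data. Counting intervals are 95% and cover counting error only. They take counts as independent, although each mate was counted. Duplicates scattered beyond counting error, with a chi-square per degree of freedom of 4.79 (170025) to 13.2 (170019). The intervals are therefore too narrow even for technical error. Copies were searched with blastn (2.17.0; at least 90% identity over 100 bases) and coding sequences aligned with mafft (7.526). Of 10 labelled libraries 9 were used, since the R2 library of 3802 had no column in the table used here. The 9 genes and all gene lists were chosen with earlier results of these data known. Named genes are the 9, and of other lists those past the threshold, with the largest or smallest fold change or level, or next to or copies of the 9. A gene that the rule on nearest patterns would name and an allele of the KP genotype are not reported here.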

Additional observations from a re-analysis of the deposited data

How the results depend on the processing

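The 6 separated genes kept their direction in every alternative run, and so did Bglap, which was not tested in 2 of them. Runx2 ran from -1.65 to 1.58 and Enpp1 from -0.59 to 0.37 on the log2 scale with each tumor left out, both turning sign without 3800. Of the 9 genes, 1 passed the threshold in the main analysis, and 6 passed with libraries as independent samples in edgeR, the same number with the duplicate number as a block, and 6 with DESeq2 on tumor sums or on libraries. These library counts treat duplicates of a tumor as replicates. Limma-voom with a random effect of tumor called 4, no filter on low counts 5, and library totals or the upper quartile in place of TMM 0. With a tumor left out the number ran from 0 to 5, the 5 being without 3802. Over all genes the count was 45, and it was 3344 with libraries in edgeR, 2476 with the duplicate number as a block, 543 in limma-voom, 1404 and 4828 in DESeq2 on tumor sums and on libraries, 880 without a filter, 80 with a mean of at least 1 CPM, and 0 to 414 with a tumor left out. The 0 came without 170019 or 170024, where 1939 and 1414 genes had p under 0.05 before adjustment. Library totals moved the median log2 fold change of all genes by -0.28 and the upper quartile by -0.16, and the calls went from 25 higher and 20 lower to 14 and 20, and to 17 and 33. Subtracting the receptor background and dividing counts by 2 (for mates counted singly), both chosen after seeing the data, left Alpl as the one gene called, although the subtraction moved the log2 fold change of Sp7 from 6.95 to 11.39. Apart from the changes named, the cause of which was not tested, the precision is limited by 2 KP tumors and, for Sp7, Bglap and Phex, by low counts.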
